A study of Mus musculus with 4 samples.

Results

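Replication-type histones are the core and linker histones that package newly copied DNA. Their genes sit in clusters of many near-identical copies, mostly without introns, and most of their mRNAs end in a conserved stem-loop in place of a poly(A) tail. They are made mainly in S phase, and some copies also give polyadenylated mRNA in cells that have left the cycle. In this table of the 1000 genes with the most untreated mRNA reads, 16 symbols begin with Hist and a digit, and the first 10 of them in row order are described here. All 10 are copies of the H2B gene: Hist1h2bf, Hist1h2bl, Hist1h2bc, Hist1h2br, Hist1h2bm, Hist1h2bj, Hist1h2bk, Hist1h2bn, Hist1h2bg and Hist1h2bh. The H2B protein pairs with H2A, and these pairs flank the H3-H4 core of the nucleosome. The other 6 listed symbols are 3 more H2B copies (Hist1h2bp, Hist1h2bb and Hist1h2ba, the last a form made in testis) and 3 H4 copies (Hist1h4h, Hist1h4k and Hist1h4b). Linker H1, H2A and H3 symbols beginning with Hist number 0 in the table and were not analysed here, so the members stand for H2B and not for replication-type histones as a class.

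The libraries came from frozen TA (tibialis anterior) skeletal muscle of Dmd Dup2 mice, a dystrophin mutant model that carries a duplication of exon 2 of Dmd. All groups share that genotype. One condition was an untreated control. The treated condition was scAAV9.U7-ACCA, an adeno-associated virus that carries an exon-skipping U7 small nuclear RNA. In its native form U7 small nuclear RNA takes part in cutting the 3' end of histone mRNA precursors. From each condition there was 1 RNA-seq library of total RNA and 1 library of ribosome footprints, the mRNA fragments that ribosomes cover, both made from muscle homogenised with cycloheximide. The labels give no age, sex or number of animals, and do not say whether animals were pooled.

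With 1 library per group, no difference here has a replicate check and no p-value is given. Intervals are 95% intervals for counting error alone. The listed genes held 125236 reads in untreated mRNA, 4248818 in treated mRNA, 3349015 in untreated footprints and 1664122 in treated footprints, so the untreated mRNA library limits the precision of every mRNA ratio. Dmd, the gene the vector acts on, had 25 untreated and 1959 treated mRNA reads, a scaled ratio of 3.63 (2.45 to 5.63).

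Promoters differ between the copies, and coding starts could be compared for 4 of them. Of the 10 members, 9 matched a RefSeq promoter entry (assembly GRCm38.p6), all on chromosome 13, and over the 250 bases upstream of their starts the 36 pairs were 46.4% to 74.5% identical, with a median of 53.0%. The first 17 coding bases of the 4 members whose coding sequence begins early enough to be in the entries are shown, because reads in such stretches are hard to assign to 1 copy. Capitals mark the 2 positions that differ among the 4.
Hist1h2bf: atgccTgagcctgcTaa
Hist1h2br: atgccTgagcctgcGaa
Hist1h2bj: atgccTgagcctgcGaa
Hist1h2bg: atgccCgagcctgcGaa
Hist1h2br and Hist1h2bj are the same over these bases, and the RefSeq table gives the current names of Hist1h2bf, Hist1h2bl, Hist1h2bj and Hist1h2bn as synonyms of one another. Of the 10 members, 9 have an H2A gene as a direct neighbour on the chromosome, the exception being Hist1h2bh, which lies between H3 genes.

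H2B promoters are known for an octamer, ATTTGCAT, that binds the transcription factor Oct-1. The 100 bases before the annotated start of 3 members with the octamer and 3 members with ATTTGAAT are shown, with an H4 gene that holds neither. Capitals mark the octamer or ATTTGAAT.
Hist1h2bm, chr13:21721944-21722043, plus strand: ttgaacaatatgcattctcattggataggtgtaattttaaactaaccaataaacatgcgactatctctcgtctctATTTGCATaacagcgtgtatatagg
Hist1h2bk, chr13:22035721-22035820, plus strand: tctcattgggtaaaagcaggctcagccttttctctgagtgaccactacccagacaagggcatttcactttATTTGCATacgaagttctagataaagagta
Hist1h2bg, chr13:23571300-23571399, plus strand: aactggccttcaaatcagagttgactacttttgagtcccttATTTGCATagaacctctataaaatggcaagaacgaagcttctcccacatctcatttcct
Hist1h2bf, chr13:23574208-23574307, minus strand: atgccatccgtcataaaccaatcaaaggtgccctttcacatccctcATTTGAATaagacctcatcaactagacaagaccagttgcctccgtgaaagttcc
Hist1h2br, chr13:21833643-21833742, plus strand: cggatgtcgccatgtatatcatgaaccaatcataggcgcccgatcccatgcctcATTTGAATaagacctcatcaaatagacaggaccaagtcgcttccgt
Hist1h2bj, chr13:22043098-22043197, plus strand: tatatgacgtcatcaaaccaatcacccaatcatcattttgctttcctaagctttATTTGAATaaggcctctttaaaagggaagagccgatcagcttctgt
Hist1h4k, chr13:21750554-21750653, minus strand: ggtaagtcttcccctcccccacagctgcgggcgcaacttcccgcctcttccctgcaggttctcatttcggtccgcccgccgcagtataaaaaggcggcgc
Searched on both strands over 250 upstream bases, ATTTGCAT was in 3 of 9 member promoters and in 1.60% of 32851 mouse promoters. The variant ATTTGAAT, searched after the sequences were seen, was in 4 of 9 members and 1.12% of promoters. The CCAAT box was in 9 of 9 members and 33.8% of promoters, and TATAAA in 4 of 9 and 12.4%. None of these but TATAAA, in 1 of 3, was found in the 3 H4 promoters. Each match is a run of letters in a window and was not tested as a binding site.

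The read counts barely tell the copies apart. In untreated mRNA, the library whose row order chose the members, the 10 copies had 19 to 22 reads (median 21). They had 61 to 78 reads in treated mRNA (median 68.5), 247 to 293 in untreated footprints (median 269) and 75 to 94 in treated footprints (median 81.5). Within a library the highest copy was thus at most 1.28 times the lowest. Separate genes of equal level, each with its own reads, would have a variance near the mean. Here the variance over the mean was 0.34 in treated mRNA, 0.78 in untreated footprints and 0.46 in treated footprints. It was 0.035 in untreated mRNA, where the row order itself narrows the range. The sources used here do not state how reads that match several copies were counted. The 10 values are therefore treated as 1 measurement of H2B with about the precision of a single copy, and not as 10 independent genes. For the 3 H4 copies the variance over the mean was 0.023 in untreated mRNA, 2.75 in treated mRNA, 6.79 in untreated footprints and 2.50 in treated footprints, and the highest copy was 1.07 to 1.34 times the lowest.

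**Figure D1:**
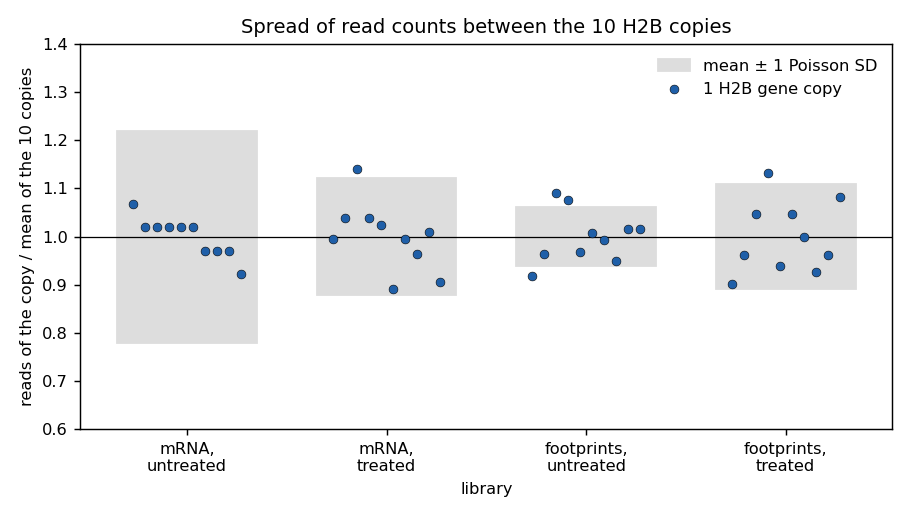
Reads of each of the 10 H2B copies divided by the mean of the 10 copies (y axis) in each library (x axis), with grey boxes for the mean ± 1 Poisson SD. In untreated mRNA all 10 copies lie inside the box, where the SD between copies was 0.84 reads against a Poisson SD of 4.54.

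H2B mRNA was far lower in the treated library. Hist1h2bf had 22 untreated and 68 treated mRNA reads, which correspond to deposited normalized counts of 162.4 and 12.6. Hist1h2bc, a copy for which RefSeq holds a second transcript, had 21 and 78 reads, or 155.0 and 14.5 normalized. Hist1h2bh, the last member, had 19 and 62 reads, or 140.2 and 11.5 normalized. Raw reads went up in each because the treated library was much deeper, and every normalized value was lower in treated muscle. Over the 10 members the normalized count ran from 140.2 to 162.4 in untreated mRNA and from 11.3 to 14.5 in treated mRNA. On this deposited scale the median gene also had a negative mRNA log2 ratio, −0.82. By the rule given below, 54.5% of genes were lower in mRNA on that scale. Among the 1000 genes, the members ranked between 563 and 684 in untreated mRNA and between 970 and 985 in treated mRNA.

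After TMM scaling, the treated to untreated mRNA ratio of the members ran from 5.80-fold lower for Hist1h2bc (3.40 to 9.50) to 7.42-fold lower for Hist1h2bj (4.29 to 12.4). The rule for a call asked for a fold of 1.5 or more, an interval clear of 1 and 50 or more reads in the pair of libraries. By this rule 10 of 10 members were lower, as were 24.8% of the 996 genes compared, and 0 members were higher, as were 31.8%. The members' median log2 ratio was −2.68, against 0.06 for all genes compared, a distance of 2.74 log2 units. That distance does not depend on the library scaling, whereas scaling moved the median gene from 0.06 down to −0.82 with the authors' constants. Higher genes made up 56.2% of called genes with TMM and 16.8% with those constants. The members were picked by their untreated mRNA reads, so their mRNA ratios are a description and support nothing by themselves. The 163 other genes with 19 to 22 such reads have the same starting level. Their median log2 ratio was 0.41, and 3 of 163 lay below the highest member. In bulk muscle, fewer cells of a type and less RNA per cell cannot be told apart.

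**Figure D2:**
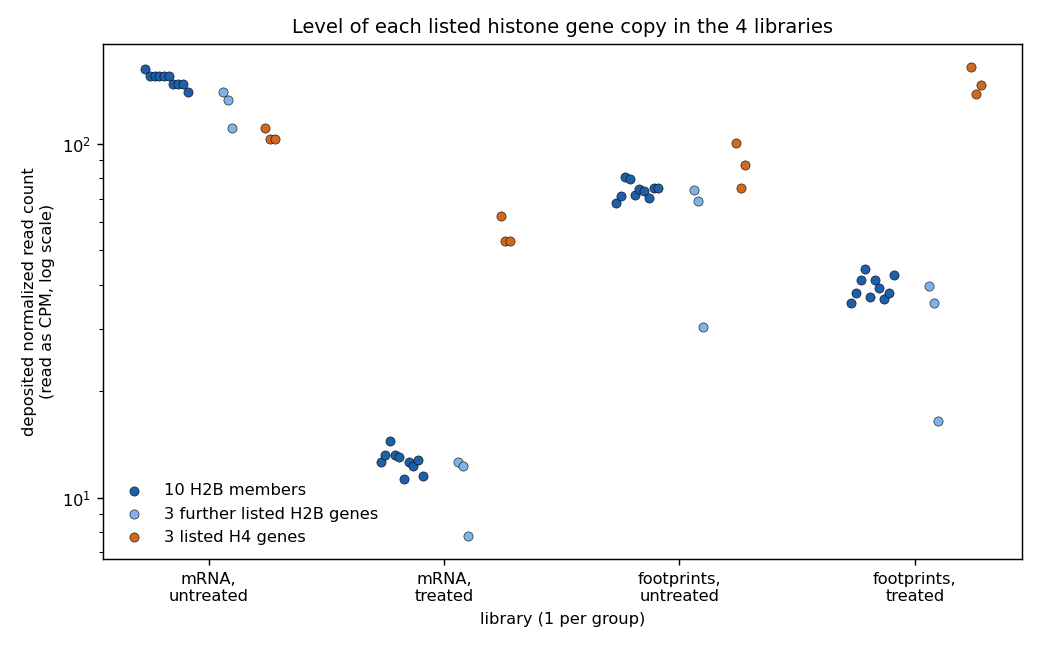
Deposited normalized read count (read as CPM, log axis) of each listed histone gene copy in the 4 libraries, with members in dark blue, the 3 further H2B copies in light blue and the 3 H4 copies in orange. Members go from at least 140.2 to at most 14.5 in mRNA and from at least 68.1 to at most 44.4 in footprints, while H4 footprints are higher in treated muscle. On this scale the median gene is also lower in treated muscle, at log2 ratios of −0.82 in mRNA and −0.29 in footprints.

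Footprints on H2B were lower too, by much less. Hist1h2bf had 247 untreated and 75 treated footprint reads, or 68.1 and 35.4 normalized. Hist1h2bc had 293 and 87, or 80.7 and 41.1 normalized. Hist1h2br had 289 and 94, or 79.6 and 44.4 normalized, the highest treated value. On this deposited scale the median gene had a footprint log2 ratio of −0.29, and 36.5% of genes were lower by the rule above. The scaled ratio ran from 1.47-fold lower for Hist1h2bh (1.15 to 1.88) to 1.65-fold lower for Hist1h2bg (1.28 to 2.14). By the same rule 8 of 10 members were lower, against 26.2% of 999 genes, and 0 higher, against 19.9%. The other 2, Hist1h2br at 1.49-fold lower (1.17 to 1.89) and Hist1h2bh, missed the fold threshold with intervals that excluded 1. All 10 estimates straddle that threshold closely, so the count of 8 says little beyond the median log2 ratio of −0.66, against −0.02 for all genes. Of the 163 genes matched on untreated mRNA reads, whose median was 0.11, 25 lay below the highest member. The footprint ratio uses neither mRNA library, but its untreated library shares its condition with the one that chose the members, so it too is given as a description.

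Set against its mRNA, H2B carried relatively more footprints in treated muscle. Translation efficiency divides the treated to untreated footprint ratio by that of mRNA. It was higher for 10 of 10 members, against 26.0% of 995 genes, and lower for 0, against 31.9%. It ran from 3.64 for Hist1h2bc (2.14 to 6.21) to 5.03 for Hist1h2bj (2.91 to 8.69), with a median log2 value of 2.06, against −0.11 for all genes. In the group of 163 genes the median was −0.29, and 7 lay above the lowest member. This double ratio contains the untreated mRNA count, 19 to 22 reads per copy, which sets most of its interval. The same count chose the members, and a count high by that choice raises the double ratio. Translation efficiency is therefore also a description and supports nothing by itself.

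**Figure D3:**
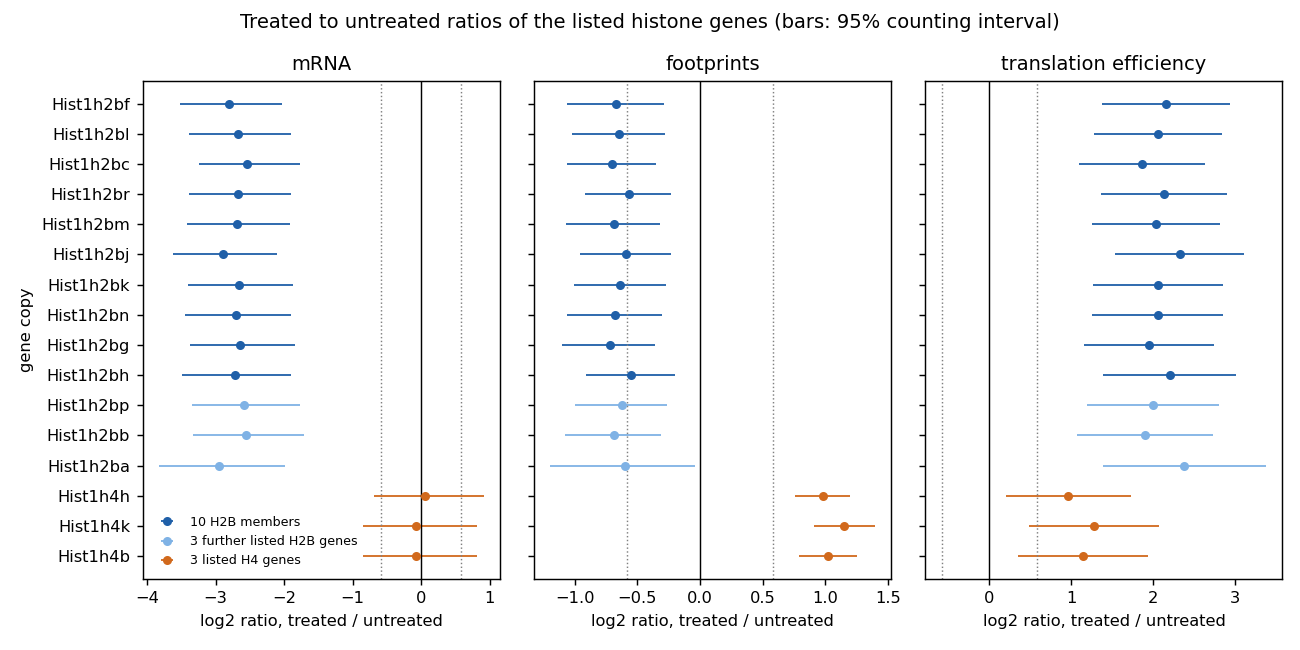
Log2 ratio of treated to untreated (x axes) in mRNA, footprints and translation efficiency for each listed histone gene copy (y axis), with 95% counting intervals and dotted lines at 1.5-fold. The H2B copies lie left of 0 in mRNA and footprints and right of 0 in translation efficiency. The 3 H4 copies lie near 0 in mRNA and right of 0 in both footprints and translation efficiency.

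Within each muscle, footprints per mRNA read were also set against the median listed gene of that muscle, which removes library scaling. In untreated muscle the members lay below it, at 0.51 for Hist1h2bf (0.33 to 0.83) to 0.65 for Hist1h2bh (0.41 to 1.10). By the same rule 5 of 10 were lower, against 22.0% of 998 genes, and 0 higher, against 21.4%, and the other 5 had intervals that reached 1. In treated muscle the members lay above the median gene, at 2.30 for Hist1h2bf (1.64 to 3.25) to 3.03 for Hist1h2bh (2.17 to 4.26). There 10 of 10 were higher, against 30.1% of 997 genes, and 0 lower, against 30.7%. The untreated value contains the mRNA count that chose the members. The treated value uses libraries that did not set the row order, but the members were chosen with earlier results of these data known. Both values are therefore given as descriptions. In treated muscle 59 of 997 genes lay above the highest member and 870 below the lowest.

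**Figure D4:**
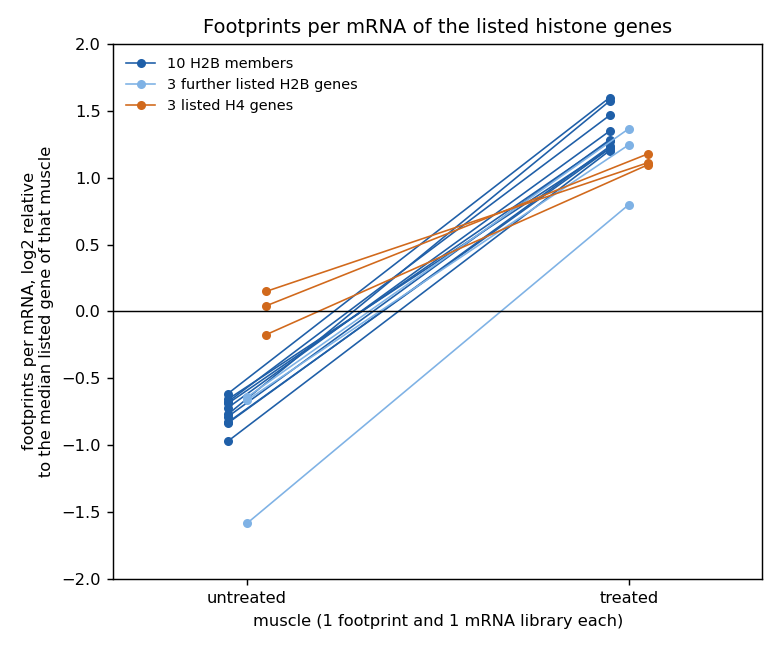
Footprints per mRNA of each listed histone gene copy in untreated and treated muscle (x axis), as log2 relative to the median listed gene of that muscle (y axis, 0 is the median gene). Every line slopes upward, the members from between −0.97 and −0.61 to between 1.20 and 1.60, and the 3 H4 copies from around 0 to between 1.10 and 1.18.

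Values of H4, the partner of H3 in the nucleosome core, are set beside those of H2B as a description. The 3 copies were added after their values were seen, and they can share reads. Hist1h4h had 15 untreated and 336 treated mRNA reads, or 110.7 and 62.4 normalized, and 366 and 348 footprints, or 100.8 and 164.4 normalized. Hist1h4k had 14 and 286 mRNA reads and 273 and 293 footprints. Hist1h4b had 14 and 286 mRNA reads and 317 and 310 footprints. Scaled mRNA ratios of the 3 copies were 1.04 (0.62 to 1.88), 0.95 (0.56 to 1.76) and 0.95 (0.56 to 1.76), and none was called. Those values depend on the scaling, with log2 ratios from −0.83 to −0.96 under the authors' constants. Footprint ratios were called higher for all 3, against 19.9% of 999 genes, at 1.97-fold (1.69 to 2.29), 2.22-fold (1.88 to 2.63) and 2.02-fold (1.73 to 2.38). With the authors' constants their footprint log2 ratios were 0.71, 0.88 and 0.75. Translation efficiency was called higher for all 3 as well, against 26.0% of 995 genes. It was 1.95 (1.15 to 3.32), 2.42 (1.39 to 4.21) and 2.21 (1.27 to 3.83).

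The gap between H2B and H4 can be read within the same libraries, where scaling cancels. Over all 30 pairs of a member and an H4 copy, the mRNA ratio of H4 was 5.41 to 7.59 times that of H2B, with a median of 6.13 and outer bounds of the 30 intervals at 2.66 and 15.4. The untreated mRNA reads in it are those that put the members ahead of H4 in row order. For footprints the H4 ratio was 2.87 to 3.65 times that of H2B, with a median of 3.21 and outer bounds at 2.17 and 4.91. For translation efficiency H2B was 1.503 to 2.57 times H4, and 5 of 30 intervals lay above 1. In untreated muscle footprints per mRNA of H2B were 0.47 to 0.74 times those of H4, with a median of 0.59, and 3 of 30 intervals lay below 1. In treated muscle footprints per mRNA of H2B were 1.02 to 1.41 times those of H4, and 0 of 30 intervals excluded 1, their outer bounds being 0.71 and 2.03. These pairs share reads and are not independent. Per length, the 8 members with a gene of 448 to 522 bases had a median of 319.5 normalized counts per kilobase of gene in untreated mRNA, and the 3 H4 genes had 252.6. In treated mRNA the same medians were 26.3 and 129.8. These per-length medians have no interval, and the untreated order is tied to how the members were chosen.

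**Figure D5:**
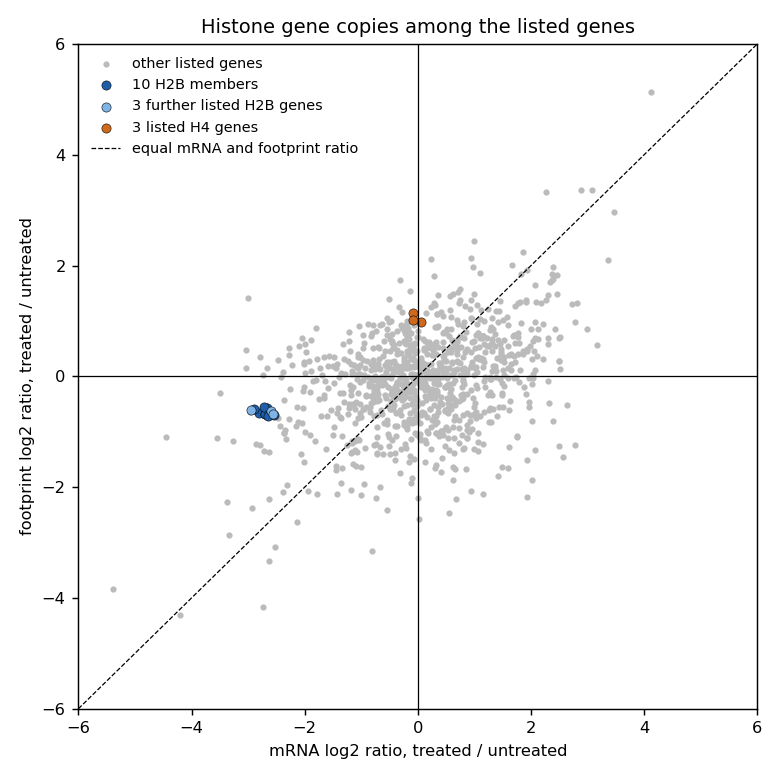
Footprint log2 ratio (y axis) against mRNA log2 ratio (x axis), treated over untreated, for every listed gene with at least 50 reads in each pair of libraries. The 10 members form a tight cluster at a median of −2.68 and −0.66, above the dashed line of equal ratios, and the 3 H4 copies lie near 0 and 1.

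The next H2B copies in the table had ratios like those of the members. All 3 can share reads with the members, so this likeness is no separate result. Hist1h2bp, with 19 untreated mRNA reads like Hist1h2bh just before it, was 6.02-fold lower in mRNA (3.42 to 10.1) and 1.54-fold lower in footprints (1.20 to 1.99). Hist1h2bb was 5.88-fold (3.28 to 10.02) and 1.61-fold lower (1.24 to 2.11). Hist1h2ba, the testis form, had 15 and 42 mRNA reads and 110 and 35 footprints, fewer footprints than any other listed H2B copy. Its mRNA was 7.70-fold lower (3.97 to 14.2), and since it can share reads with the other copies its own expression in muscle was not resolved.

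The 6 listed genes nearest to the members' summed reads in the plane of both log2 ratios, among 985 genes that are no member, included these 3 H2B copies. Shared reads can place those copies there. The other 3 were Wbp5 (distance 0.11 log2 units), D0H4S114 (0.25) and Slc25a5 (0.27), which encodes an ADP/ATP carrier of mitochondria. Slc25a5 had 42 and 116 mRNA reads and 439 and 135 footprints, so its mRNA was 7.81-fold lower (5.35 to 11.2) and its footprints 1.57-fold lower (1.29 to 1.92). Wbp5, the nearest, had only 14 and 47 mRNA reads and 39 and 13 footprints, and its footprint ratio of 0.69 (0.34 to 1.32) was not called. Treated footprints per mRNA, relative to the median gene, were 0.58 (0.29 to 1.08) for Wbp5, 1.48 (0.96 to 2.24) for D0H4S114 and 2.43 (1.88 to 3.14) for Slc25a5. The members had 2.30 to 3.03. Likeness here rests on 4 libraries and 2 ratios, and does not extend to footprints per mRNA for Wbp5.

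Other chromatin genes were sparse in the table. Of 15 replacement and variant histones only H3f3a, which encodes the H3.3 used outside S phase, was listed, with 52 and 502 mRNA reads and 555 and 287 footprints. Its mRNA was 2.23-fold lower (1.64 to 2.97), and its footprint ratio was 1.07 (0.93 to 1.24), or a log2 ratio of −0.17 with the authors' constants. Of 10 HMG genes, which encode proteins that bind nucleosomes or bend DNA, both listed members were lower in mRNA. Hmgn2 was 11.3-fold lower (6.495 to 19.1) from 23 and 44 reads, with a footprint ratio of 0.81 (0.53 to 1.23), and Hmgb1 1.85-fold lower (1.36 to 2.47) with footprints 1.93-fold higher (1.69 to 2.20). Translation efficiency was higher for all 3 of these genes, against 26.0% of 995 genes. It was 2.41 (1.76 to 3.32) for H3f3a, 9.34 (4.93 to 17.7) for Hmgn2 and 3.60 (2.63 to 4.93) for Hmgb1. Of 6 listed histone chaperones among 20, 1 was higher and 1 lower in mRNA, against 31.8% and 24.8% of all genes. Atrx, a remodeller that helps deposit H3.3, was 2.09-fold higher (1.34 to 3.43). The lower one was Rbbp4, a histone-binding subunit of chromatin complexes named here after its value was seen, at 2.24-fold (1.36 to 3.52). Npm1, a nucleolar chaperone, had a ratio of 1.23 (0.82 to 1.94) with footprints 1.82-fold lower (1.52 to 2.20). Its translation efficiency was called lower, at 0.45 (0.29 to 0.71). Nap1l4, another of the chaperones, had an mRNA ratio of 0.89 (0.63 to 1.31) with footprints 1.77-fold higher (1.55 to 2.03). Its translation efficiency was called higher, at 2.02 (1.39 to 2.93). Of the 6 chaperones, 1 was higher and 1 lower in footprints, against 19.9% and 26.2% of all genes. In translation efficiency 1 was higher and 1 lower, against 26.0% and 31.9% of all genes. Snrpb, a core protein of spliceosomal particles that is also part of the U7 particle, was the single listed gene of 22 in histone mRNA processing, at 1.74-fold lower mRNA (1.06 to 2.72). Brd2, a reader of acetylated histones, was the single one of 23 in histone modification, at 2.02-fold higher mRNA (1.21 to 3.62). Translation efficiency was 2.53 (1.60 to 4.02) for Snrpb, called higher, and 0.57 (0.29 to 1.10) for Brd2, not called. With the authors' constants the mRNA log2 ratios of Atrx and Brd2 were 0.18 and 0.13.

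Markers of other cell types differed in the same libraries in both directions. Over all genes compared, 24.8% were lower and 31.8% higher in mRNA, and 26.2% lower and 19.9% higher in footprints. Summed counts below carry the authors' constants, under which the median gene had an mRNA log2 ratio of −0.82. Of 29 proliferation markers 2 were listed, and the other 27 were not analysed here. Tuba1b, an alpha-tubulin, was 1.95-fold lower in mRNA (1.43 to 2.61) and 1.51-fold lower in footprints (1.37 to 1.67), and Ran, a nuclear transport GTPase, had ratios of 0.84 (0.51 to 1.496) and 0.69 (0.57 to 0.84). Their summed normalized count was 487.1 in untreated and 156.8 in treated mRNA. Of 20 macrophage markers 6 were listed, of which 5 were lower in mRNA (Ctsb was not called) and 6 in footprints, with summed normalized mRNA counts of 1549.8 and 357.3. Of 19 fibroblast and matrix markers 15 were listed, of which 10 were lower and 2 higher in mRNA (Dcn and Fbn1, the latter named after its value was seen) and 13 lower in footprints, with sums of 23846.1 and 3263.2. Fast fibre markers, 13 of 15 listed, had 5 higher and 0 lower in mRNA with TMM (Myh4, Atp2a1 and, named after their values were seen, Ckm, Pygm and Actn3), 3 higher (Pygm, Tnni2 and Pvalb) and 3 lower (Acta1, Mylpf and Actn3) in footprints, and summed mRNA counts of 284420 and 191277. Of these, Myh4 was 1.53-fold higher with TMM and had a log2 ratio of −0.27 with the authors' constants. The deposited normalized mRNA counts carry those constants. Untreated and treated, they were 7232.8 and 6771.2 for Pygm, 13484.1 and 13960.9 for Ckm, 5904.4 and 6511.8 for Actn3, and 24200.5 and 27682.5 for Atp2a1. Pygm was thus also lower on that scale, and Ckm, Actn3 and Atp2a1 were higher by less than with TMM. Of 12 myoblast and satellite cell markers 2 were listed and went opposite ways. In bulk muscle the reads of these 2 genes cannot be assigned to such cells and not to fibres. With TMM the myogenic regulator Myf6 had ratios of 1.92 (1.24 to 3.16) in mRNA and 4.38 (3.76 to 5.12) in footprints, both called higher. Its deposited normalized mRNA counts were 147.6 untreated and 153.8 treated, so the mRNA call depends on the scaling. Des, which encodes the filament protein desmin, had ratios of 0.499 (0.464 to 0.538) and 0.228 (0.217 to 0.239), both called lower. Of 13 endothelial markers 1 was listed, Fabp4, a fatty acid carrier, with an mRNA ratio of 1.18 (0.71 to 2.13) and footprints 4.34-fold higher (3.55 to 5.34). As 1 gene in bulk muscle, Fabp4 cannot be read as a measure of endothelial cells. None of the listed markers was at 0 in a library. The red blood cell and lymphocyte lists had 0 listed members, and the part of these cells in the H2B values was not tested.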

How the data were processed

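The authors deposited 1 table of 1000 genes with a read count and a normalized read count for each of 4 libraries, per the file headers. Within each library the deposited normalized counts are proportional to the counts (at least 99.4% of genes within 0.1 in each library) and were read as CPM, a scale inferred from the values. The submitters' processing notes name Trimmomatic, STAR, edgeR and mm9, with no roles. The counting tool, strand setting and handling of reads with several positions: not given in the sources used here. Rows stand in falling order of untreated mRNA count, down to 14 reads.

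Counts were scaled by TMM over the listed genes (edgeR 4.0.16, R 4.3.3). Ratios have exact conditional binomial 95% intervals. For translation efficiency 0.5 was added to every count, and its interval is a normal one for the log ratio. Reads have no molecular identifiers, so intervals cover counting error only. The code was tested on simulated data. Alternatives were 5 other scalings (DESeq2 1.42.0 among them), read minimums, a 2-fold threshold, all 16 Hist symbols and summed copies. Of the table's identifiers, 996 matched RefSeq (GRCm38.p6), which was used for names, neighbours and promoter sequences. Promoter identity came from global alignment (Biopython 1.88).

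Members and gene lists were chosen with earlier results of these data known. The naming rule covers the members, the 3 next Hist symbols and the 6 genes nearest in both ratios. It also covers up to 4 genes per list, those with the most reads. Some further list genes were named outside this rule. The 3 H4 genes and the variant octamer were added after their values or sequences were seen.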

Additional observations from a re-analysis of the deposited data

How the results depend on the processing

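No paired analysis was possible because each group had 1 library. The direction of the members' median held in all 5 comparisons under every alternative run. Their mRNA median log2 ratio was −3.56 with the authors' constants, outside the counting intervals of 9 of the 10 copies, and 10 of 10 members stayed called lower. The count of members called lower in footprints was 5 when the 20 most abundant genes were left out of the scaling and 0 at a 2-fold threshold. For footprints per mRNA in untreated muscle it was 0 at 2-fold and 9 with a minimum of 200 reads, which moves the median gene. With every listed Hist symbol, 16 of 16 were higher in translation efficiency and 16 of 16 in treated footprints per mRNA, because 6 genes were added. A minimum of 200 reads left no member for mRNA, translation efficiency or treated footprints per mRNA. Higher genes made up 45.0% of those called in translation efficiency with TMM and 73.9% with listed totals. Their share in footprints was 43.2% with TMM and 23.8% with the authors' constants. Of 100 called ratios of single genes named or allowed by the naming rule, 1 changed sign under a scaling: Myh4, with mRNA log2 ratios of −0.044 with listed totals and −0.27 with the authors' constants. Of 35 such ratios that were not called, 11 changed sign, among them those of Hist1h4h mRNA and H3f3a footprints.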
